A study of Homo sapiens with 4 samples.

Results

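The clustered histone genes are H1, H2A, H2B, H3 and H4 genes that mostly lie together in gene clusters. They are used in bulk when a cell copies its DNA. They were taken as the symbols of the array's probe annotation that match H1-1 to H1-6, or H2AC, H2BC, H3C or H4C followed by a number, and genes whose 4 values are identical were counted once. This gave 56 members of 18417 genes with a probe set listed for that gene alone: 6 H1, 14 H2A, 16 H2B, 8 H3 and 12 H4 genes. H4C14 and H4C15 had identical values and stand as 1 member. RefSeq names 69 genes by the same pattern, and the other 12 are reached only by probe sets listed for several genes.

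The study measured 4 cultures of human cell lines on Affymetrix arrays, with 1 array per group. U266 is a multiple myeloma line, and its cells received 15 µM atovaquone or the DMSO vehicle for 2 h. K562 is a chronic myeloid leukaemia line, and its cells received 20 µM atovaquone or the vehicle for 5 h. Atovaquone is an antimicrobial drug that blocks the mitochondrial cytochrome bc1 complex. Every culture grew in RPMI-1640 with fetal bovine serum, so vehicle and drug arrays of a line share medium and time. Each group is 1 culture of an established line, so no difference below has a replicate check and none has a p-value.

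Core histones H2A, H2B, H3 and H4 wrap DNA into nucleosomes, and the linker histone H1 binds where DNA enters and leaves them. The clustered genes are transcribed mainly in S phase from nuclear sites called histone locus bodies, where NPAT acts as a coactivator. Their mRNAs lack introns and usually end in a stem-loop that SLBP binds, in place of a poly(A) tail, and they are degraded quickly when DNA synthesis stops. The labels do not say whether the RNA was primed from poly(A) tails or at random sites. Coding sequences within a class are similar, so a probe set may also read paralogs, and each gene's value is uncertain to that degree.

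An intensity is the deposited array value on a linear scale in arbitrary units. Intensities of different probe sets are not on a common scale, so each member was set only against itself on another array. A member counted as measured in a comparison when both arrays reached the floor, the 40th percentile of each array's listed probe sets. The floors were 324 and 331 on the U266 atovaquone and vehicle arrays, and 306 and 305 on the K562 atovaquone and vehicle arrays. Ratios are on the log2 scale and were centred on the median ratio of all measured probe sets. That centring removed shifts of -0.0096 for U266, -0.0048 for K562 and -0.025 between the vehicle arrays. Where only 1 array reached the floor, the fold is a bound.

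The promoters show what the classes share in sequence. RefSeq promoters on GRCh38.p14 were found for 52 of the 57 member symbols. Of these, 44 lay on chromosome 6, 7 on chromosome 1 and 1, that of H4C16, alone on chromosome 12. 4 short motifs known from histone promoters were searched on both strands of the 250 bases before each start. The CCAAT box (CCAAT), bound by NF-Y, was in 6 of 6 H1, 13 of 13 H2A, 16 of 16 H2B and 6 of 6 H3 promoters. It was in 3 of 11 H4 promoters, those of H4C6, H4C9 and H4C13, and in 32% of all 35116 promoters in the table. The octamer (ATTTGCAT), bound by POU2F1 in H2B promoters, was in 10 of 13 H2A and 13 of 16 H2B promoters, in no H1, H3 or H4 promoter, and in 1.63% of all promoters. The H1 box (AAACACA) was in 6 of 6 H1 promoters, in no promoter of another class, and in 4.82% of all promoters. The TATA box (TATAAA) was in 3 of 6 H1, 10 of 13 H2A, 12 of 16 H2B, 4 of 6 H3 and 5 of 11 H4 promoters, against 10.7% of all promoters. None of the 4 motifs contains another, although a TATA box and an H1 box can share their A bases. In 9 pairs an H2A and an H2B gene point away from each other, with starts 215 to 248 bases apart. The 250 bases of each gene then span the stretch between them, so 1 match there counts for both. The H2A and H2B shares are therefore not separate, and a TATA box counted for 1 gene can lie at its partner's start. H2BC17 counts as having a TATA box, though its 150 bases printed below hold none. A match describes the letters and shows no binding.

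**Figure D1:**
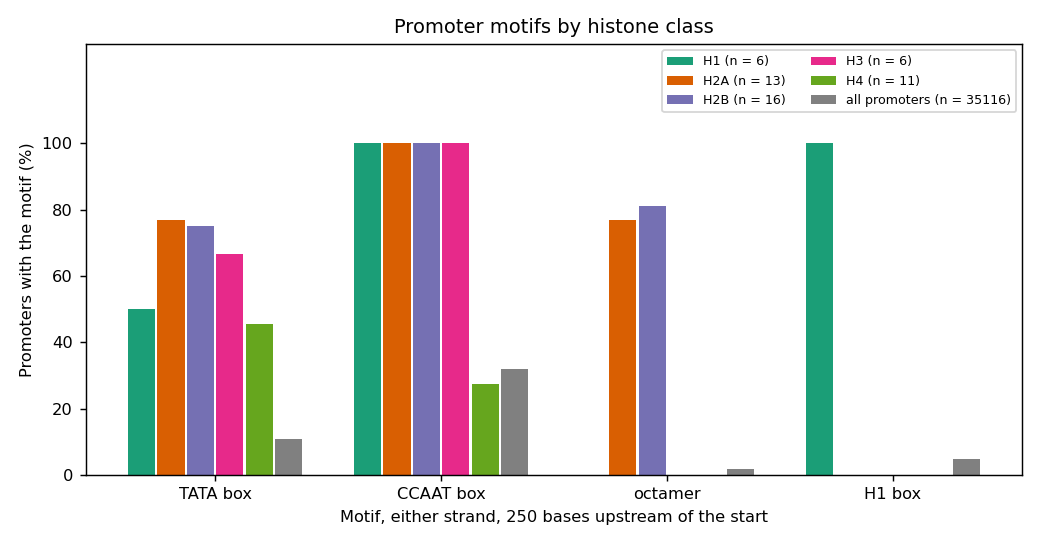
Share of promoters (percent, y axis) that hold each of 4 motifs (x axis) on either strand of the 250 bases before the start, for the 5 histone classes and for all 35116 RefSeq promoters (grey). The octamer stands only in the H2A and H2B bars (76.9% and 81.2%) beside the grey bar, the H1 box only in the H1 bar (100%) beside the grey bar, and the CCAAT bar of H4 (27.3%) is the lowest of the classes. A match between the starts of an H2A and H2B pair counts in both bars.

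The sequences that follow are the 150 bases before the start of the member with the lowest K562 ratio of each class, shown so that the class motifs can be read beside those values. Each runs 5′ to 3′ on the gene's strand, from RefSeq on GRCh38.p14, with every match to the 4 motifs on either strand in capitals.
H1-3, chr6:26234988-26235137, minus strand: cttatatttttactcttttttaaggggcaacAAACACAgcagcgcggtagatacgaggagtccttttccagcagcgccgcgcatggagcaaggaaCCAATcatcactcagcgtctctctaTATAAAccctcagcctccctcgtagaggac
H2AC4, chr6:26033619-26033768, minus strand: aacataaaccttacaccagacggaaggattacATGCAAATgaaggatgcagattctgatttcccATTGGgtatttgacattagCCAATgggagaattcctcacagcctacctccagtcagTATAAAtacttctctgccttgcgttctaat
H2BC17, chr6:27893275-27893424, plus strand: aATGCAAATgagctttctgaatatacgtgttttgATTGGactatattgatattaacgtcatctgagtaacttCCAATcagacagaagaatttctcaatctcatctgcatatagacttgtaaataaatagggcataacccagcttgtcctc
H3C1, chr6:26020301-26020450, plus strand: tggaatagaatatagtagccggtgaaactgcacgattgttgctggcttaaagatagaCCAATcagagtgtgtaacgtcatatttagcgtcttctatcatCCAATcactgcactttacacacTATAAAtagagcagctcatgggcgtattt
H4C2, chr6:26027284-26027433, minus strand: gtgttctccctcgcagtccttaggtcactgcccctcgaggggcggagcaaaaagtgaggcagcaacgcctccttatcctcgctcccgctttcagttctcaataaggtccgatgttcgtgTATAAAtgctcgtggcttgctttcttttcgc
The H1-3 stretch holds the H1 box, a CCAAT box and a TATA box, and the H2AC4 and H2BC17 stretches each hold an octamer and 2 CCAAT boxes, with a TATA box in H2AC4. The H3C1 stretch holds 2 CCAAT boxes and a TATA box without octamer or H1 box. The H4C2 stretch holds a TATA box and no other motif searched. The part of these motifs in the ratios was not tested.

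The arrays differed in how many members they detected by no more than 2. At or above the floor were 42 of 56 members (75%) on the U266 atovaquone array and 44 (78.6%) on the U266 vehicle array. There were 44 (78.6%) on each K562 array. Over all genes the share was 59.7% on both U266 arrays and 60% on both K562 arrays. Under the floor on both vehicle arrays lay 8 members: H1-1, H1-6, H2AC1, H2BC1, H2BC3, H2BC6, H3C8 and H4C7. H1-6 encodes the testis form of H1, and H2AC1 and H2BC1 encode the testis forms of H2A and H2B.

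At baseline the classes were read on the vehicle arrays, U266 over K562. The 2 lines differ in origin, and their vehicle exposures lasted 2 h and 5 h, so line and time cannot be told apart. In bulk RNA, fewer cells using a gene and less RNA per cell cannot be told apart either. Of 40 members measured in both lines, 27 (67.5%) were lower in U266, against 50.5% of 9483 genes. The median was -0.24, against -0.0071 over all genes. Past 2-fold, 5 members (12.5%) were lower and 3 (7.5%) were higher in U266. Of all measured genes, 6.97% were lower and 7.97% were higher by that fold. Members spread more than genes in general, with an SD of the log2 ratio of 1.14 over members and 0.758 over all measured genes.

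In the main setting the class medians ran from H1 at the low end to H4 at the high end. The top place depended on the floor. Without a floor H2B was at 0.13 and H4 at -0.09, and with a floor at percentile 20 they were at 0.07 and 0.03. H1 had a median log2 ratio of -0.60 over 3 measured genes, H2A -0.36 over 12, H3 -0.35 over 5, H2B -0.04 over 11 and H4 0.05 over 9. In H2A, 11 of 12 genes were lower in U266, and H2AC13 at 0.13 was the exception. In H2B, 6 of 11 were lower, and the class held both the most U266-high gene measured and one of the most K562-high ones. The SD of 1 probe set between the lines, from 276 genes with 2 measured probe sets, was 0.380.

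Among the linker genes, 3 of the 6 were measured in both lines. H1-2 had an intensity of 4088 in U266 vehicle and 6299.8 in K562 vehicle cells, a log2 ratio of -0.60. H1-3 had 1257 in U266 and 2255 in K562 vehicle cells, a log2 ratio of -0.82. H1-4 was brighter in U266, at 13613 against 12419 in K562 vehicle cells, with a log2 ratio of 0.16. All 3 lay within 2-fold. H1-5 was the exception among the H1 genes that reached the floor anywhere. It had 165 in U266 vehicle cells, below the floor, against 2710.0 in K562 vehicle cells, at least 8.05-fold lower in U266. H1-1 and H1-6 stayed below the floor on all 4 arrays, with H1-1 between 151 and 163 and H1-6 between 128 and 239.6.

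Every member ratio measured on both vehicle arrays that was wider than that of the H3 gene H3C12 (4.87-fold) belonged to an H2A or H2B gene. H2AC8 had 363 in U266 vehicle cells, just over the floor, against 4427 in K562 vehicle cells, 12-fold lower in U266. With a floor at percentile 60 the U266 value fell below it, and the log2 ratio was a bound of -2.68 in place of -3.58. Its neighbour H2BC8 had 509 in U266 against 2987 in K562 vehicle cells, 5.76-fold lower in U266. H2AC15 stood 5.56-fold lower in U266 (737 against 4166 in K562). With atovaquone the side was the same, H2AC8 reading 302 in U266 and 3066 in K562 atovaquone cells. H2BC11 had 751 in U266 against 3666 in K562 vehicle cells, 4.79-fold lower in U266. H2BC14 ran the other way. It had 4369.7 in U266 against 460.1 in K562 vehicle cells, 9.66-fold higher in U266. H2AC14 had 2505 in U266 against 7.24 in K562 vehicle cells, at least 8.35-fold higher in U266 because the K562 value lay under the floor. H2BC26 was at least 5.16-fold higher in U266 (1549 against 183 in K562), and H2BC13 2.01-fold higher (3127 against 1579). H2BC10 reached the floor only in U266, at 347 against 67.1 in K562, at least 1.16-fold higher.

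Fewer H3 and H4 genes were measured. H3C12 had 670.5 in U266 against 3319 in K562 vehicle cells, 4.87-fold lower in U266. H3C1 was under the floor in U266 (162 against 1014 in K562), at least 3.01-fold lower in U266. H3C3 was also under the floor in U266 (167 against 500.4 in K562), at least 1.49-fold lower. Among H4 genes, H4C16 was at least 5.63-fold higher in U266, at 1689 against 164 in K562. H4C6 was 2.01-fold higher in U266, at 1015 against 514 in K562. H4C13 had 40.5 in U266 against 493 in K562 vehicle cells, at least 1.47-fold lower in U266. H4C4 lay just inside 2-fold, at -0.84. H2BC13 and H4C6, at 1.01 and 1.01 on the log2 scale, sat at the 2-fold line itself.

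**Figure D2:**
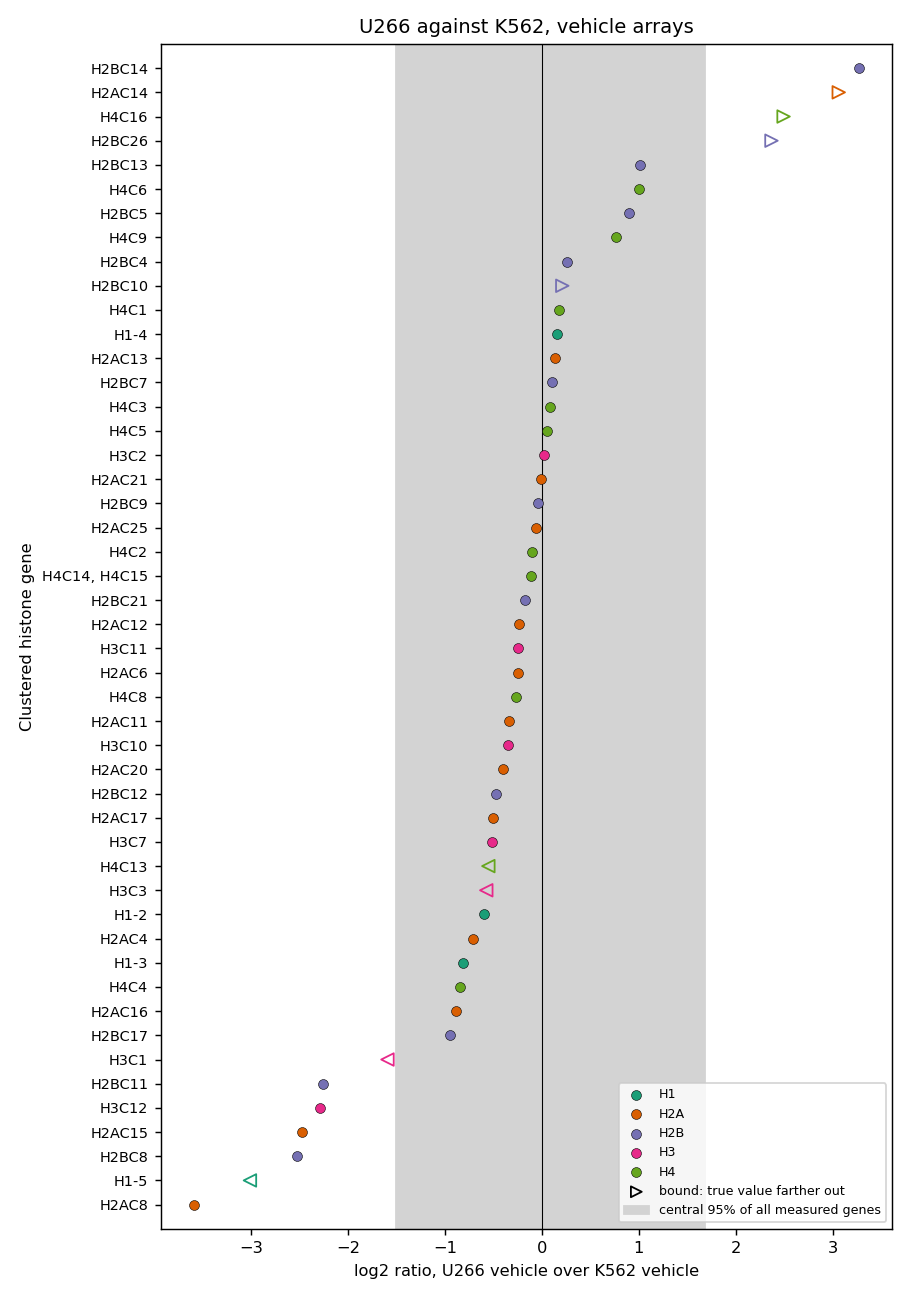
Log2 ratio of U266 vehicle over K562 vehicle (x axis) for each clustered histone gene that reached the floor on at least 1 of these arrays (y axis), coloured by class. Open triangles are bounds whose true value lies farther out, and the grey band is the central 95% of all measured genes, from -1.51 to 1.68. Beyond the band lie 7 members on the low side and 4 on the high side, filled or open, with H2AC8 at -3.58 and H2BC14 at 3.27 as the extremes.

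Many H2A and H2B genes are transcribed away from each other out of a shared promoter. In all, 9 such pairs were found among the members, each 1 H2A and 1 H2B gene, with starts 215 to 248 bases apart. Both genes were measured in both lines in 6 pairs, and in 5 of these the ratios of U266 over K562 had the same sign. In the exception, H2BC4 was at 0.26 and H2AC6 at -0.25. Over all measured genes of these classes, 11 of 12 H2A and 6 of 11 H2B genes were lower in U266. Whether paired genes share a sign more often than others was not tested. The paired genes of 2 promoters stood far from 0 together: H2BC8 with H2AC8 on the K562-high side, and H2BC14 with H2AC14 on the U266-high side. In other pairs they parted. H2BC11 was at -2.26 beside H2AC11 at -0.33, and H2BC26 was at least 5.16-fold higher beside H2AC25 at -0.06. The stretches between the starts of the first 2 pairs are shown because their genes mark opposite lines. Capitals again mark the 4 motifs on either strand, on the strand of the H2B gene, whose start follows the last base.
H2BC8 and H2AC8, chr6:26216689-26216920, minus strand: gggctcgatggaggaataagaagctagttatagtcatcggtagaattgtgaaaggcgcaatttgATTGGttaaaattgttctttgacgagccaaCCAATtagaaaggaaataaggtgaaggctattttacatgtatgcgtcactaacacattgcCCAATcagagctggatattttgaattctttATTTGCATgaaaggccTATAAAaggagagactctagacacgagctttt
H2BC14 and H2AC14, chr6:27814778-27815021, plus strand: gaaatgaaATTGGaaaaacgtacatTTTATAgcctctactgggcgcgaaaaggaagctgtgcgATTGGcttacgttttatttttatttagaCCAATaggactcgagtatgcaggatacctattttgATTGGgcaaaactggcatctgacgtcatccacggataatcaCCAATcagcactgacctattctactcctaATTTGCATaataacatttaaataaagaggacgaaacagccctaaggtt
The first stretch holds 1 octamer, 3 CCAAT boxes and 1 TATA box. The second holds 1 octamer, 5 CCAAT boxes and 1 TATA box. The same kinds of motif were found in both, but the TATA box stands near the H2BC8 start in the first and near the H2AC14 start in the second. Their part in the ratios was not tested.

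**Figure D3:**
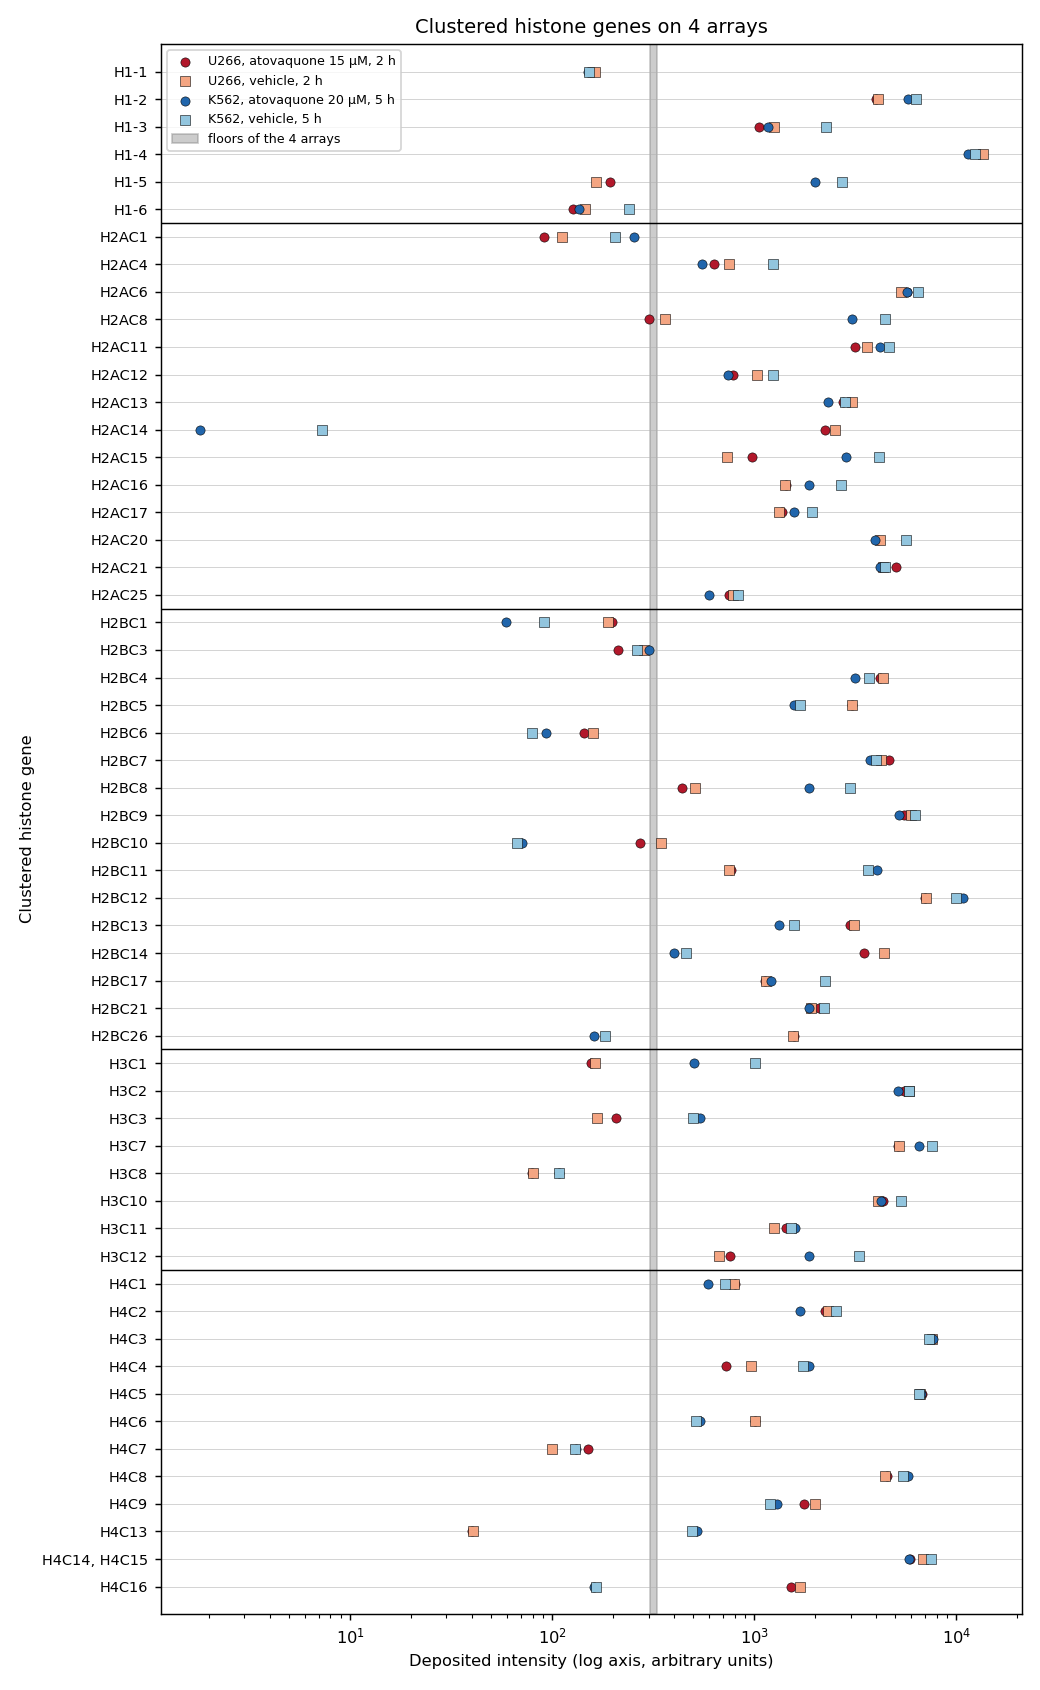
Deposited intensity (x axis, log scale, arbitrary units) of the 56 clustered histone genes (y axis) on the 4 arrays, with circles for atovaquone and squares for vehicle, red for U266 and blue for K562. The grey strip spans the floors of the arrays (305 to 331), and the gaps between colours at H1-5, H2AC8, H2AC14, H2BC14 and H4C16 are wider than the gaps between circle and square in the same colour.

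After 2 h of 15 µM atovaquone in U266 cells, no clustered histone gene differed by 1.5-fold. Of 42 measured members, 0 were higher and 0 were lower by that fold. Over 10731 measured genes, 0.857% were higher and 0.0932% were lower, so none among 42 members is close to the background. The median was -0.02 over members and -0.00012 over all genes, and 25 members (59.5%) lay below 0, against 50% of genes. The members ran from -0.39 (H4C4) to 0.41 (H2AC15), while the central 95% of genes ran from -0.28 to 0.34. The SD of 1 probe set in this comparison, from 298 genes with 2, was 0.110.

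The 5 class medians in U266 lay between -0.06 and 0.09. H1 had -0.06 over 3 genes, all below 0, H2A -0.03 over 12, H4 -0.02 over 10, H2B -0.0073 over 12 and H3 0.09 over 5. H4C4 had 728 with atovaquone and 961 with vehicle, a log2 ratio of -0.39. H2AC12 had 789 with atovaquone and 1033 with vehicle, -0.38 on that scale. H2BC14, the U266-high gene, had 3503 with atovaquone and 4369.7 with vehicle, -0.31 on that scale. H2AC15 had 976 with atovaquone and 737 with vehicle, the highest member ratio. In H3, H3C11 was at 0.21 and H3C2 at -0.08, the extremes of the class. The highest H2B and H4 ratios were 0.15 for H2BC7 and 0.04 for H4C5. H2AC8 and H2BC10 passed the floor only with vehicle, at 363 and 347, against 302 and 272 with atovaquone, and the other 12 members lay under it on both U266 arrays. The linker genes read -0.03 for H1-2, -0.24 for H1-3 and -0.06 for H1-4.

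After 5 h of 20 µM atovaquone in K562 cells, 8 of the 44 measured members (18.2%) were lower by 1.5-fold or more, and none was higher by that much. Of 10756 measured genes, 0.697% were lower and 1.42% were higher. The 8 came from all 5 classes: H1-3, H2AC4, H2AC12, H2BC8, H2BC17, H3C1, H3C12 and H4C2. H1 and H4 had 1 gene each, and that of H4, H4C2, lay at the 1.5-fold line itself. In all, 33 of 44 members (75%) lay below 0, against 51.1% of genes. The median was -0.23 over members and -0.0057 over all genes. Members ran from -1.17 (H2AC4) to 0.15 (H2BC11), and the central 95% of genes from -0.42 to 0.48. The SD of 1 probe set, from 323 genes with 2, was 0.118. The other 12 members lay under the floor on both K562 arrays.

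The classes did not share 1 level. All 12 measured H2A genes lay below 0 with a median of -0.48, and all 4 measured H1 genes with a median of -0.28. In H2B, 9 of 11 lay below 0 with a median of -0.23, and in H3, 5 of 7 with a median of -0.21. In H4, 3 of 10 lay below 0, and the median was 0.08. With the probe sets listed jointly for H4C14 and H4C15 in place of the single ones, 2 of 10 lay below 0 and the median was again 0.08. The other 7 H4 genes spanned a narrow range, from 0.04 (H4C5) to 0.12 (H4C9), with H4C3, H4C4, H4C6, H4C8 and H4C13 between them. H4C1 at -0.27, the shared value of H4C14 and H4C15 at -0.36 and H4C2 stood below them.

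**Figure D4:**
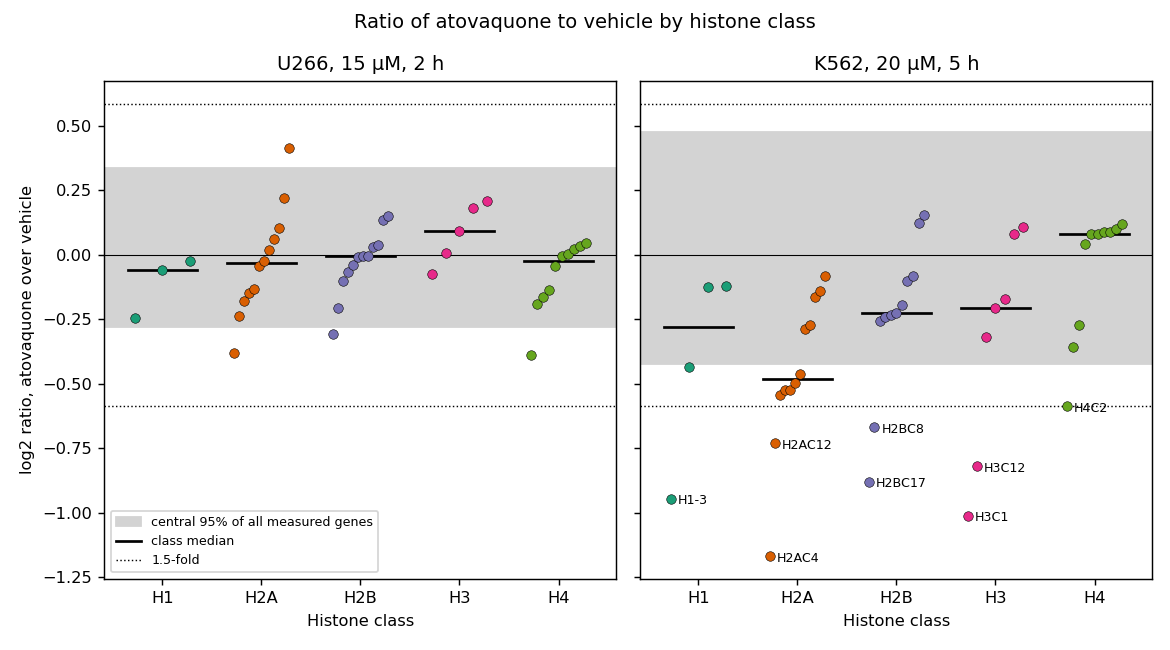
Log2 ratio of atovaquone over vehicle (y axis) for each measured clustered histone gene, by class (x axis), in U266 after 2 h at 15 µM (left) and K562 after 5 h at 20 µM (right). Bars are class medians, dotted lines mark 1.5-fold and the grey band holds the central 95% of all measured genes; the 8 labelled genes lie at or below the lower dotted line in K562, and none does in U266.

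H2AC4 had the lowest ratio of any member. Its intensity was 552 with atovaquone and 1246 with vehicle, 2.25-fold lower, and only 7 of the 10756 genes had a lower ratio. H3C1 had 501 with atovaquone and 1014 with vehicle, 2.02-fold lower, with 12 genes lower still. Both atovaquone values remained above the floor of 306. The linker gene H1-3 had 1167 with atovaquone and 2255 with vehicle, 1.93-fold lower. H2BC17 had 1217 with atovaquone and 2248 with vehicle, 1.84-fold lower. H3C12 had 1873 with atovaquone and 3319 with vehicle, 1.77-fold lower. These 5 genes were among the 24 lowest ratios of the K562 comparison. H2AC12 had 745 with atovaquone and 1240.1 with vehicle, 1.66-fold lower. H2BC8 had 1871 with atovaquone and 2987 with vehicle, 1.59-fold lower. The 2 H2A and 2 H2B genes among the 8 thus ran from 1.59-fold to 2.25-fold lower. H4C2 had 1689 with atovaquone and 2546 with vehicle, 1.5-fold lower and just past the line. Just outside it were 3 more H2A genes, H2AC15 at -0.54, H2AC8 at -0.53 and H2AC16 at -0.52. H4C2 passed the line under some settings and not others, as the closing section gives.

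The remaining linker genes in K562 lay closer to 0. H1-5 had 1997 with atovaquone and 2710.0 with vehicle, a log2 ratio of -0.44. H1-2 and H1-4, the genes of 2 common somatic H1 forms, were at -0.12 and -0.12, about 1 probe-set SD below 0. Of the brightest H2A probe sets, H2AC20 had 3971 with atovaquone and 5632 with vehicle, at -0.50. H2AC6 was at -0.16 and H2AC21 at -0.08, the highest H2A ratio. In H2B, H2BC11 at 0.15 and H2BC12 at 0.12 were the genes above 0. In H3, H3C3 at 0.11 and H3C11 at 0.08 were above 0, and H3C2, H3C7 and H3C10 ran from -0.32 to -0.17. Of the 6 divergent pairs with both genes measured, both lay below 0 in 5. The exception was H2BC11 at 0.15 beside H2AC11 at -0.14. All 12 measured H2A and 9 of 11 H2B genes lay below 0, so the pair count does not set paired genes apart. H2BC17, with -0.88, and its partner H2AC17, with -0.29, were the pair farthest apart.

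Probe sets listed for several clustered genes gave further readings. Those for H3C13, H3C14 and H3C15 were between -0.40 and -0.38 in K562 and between -0.19 and -0.14 in U266. The one for H2AC18 to H2AC21 was at -0.29 in K562 and 0.0034 in U266, and the one for H3C4 and H2AC7 at -0.39 in K562 and -0.10 in U266. The probe sets for H4C11 and H4C12 were at -0.12 in K562 and 0.06 in U266. Between the vehicle arrays they were at -1.12 and -1.08, more than 2-fold lower in U266. With probe sets of several genes added, 7 readings in place of 5 were at least 2-fold lower in U266. Several of these read differently from a member they name. The one for H2BC15 and H2AC15 was at 0.21 between the vehicle arrays and -0.16 in K562, where H2AC15 alone was at -2.47 and -0.54. The one for H2BC12, H2BC12L, H2BC17 and H2BC5 was at -0.06 in K562, where H2BC17 alone was at -0.88. The 2 that include H2BC21 were at -0.07 and -0.06 in U266, where H2BC21 alone was at 0.13. Those listed jointly for H4C14 and H4C15, which hold identical values, had 3139 with atovaquone and 1859 with vehicle in K562, 1.69-fold higher. The probe sets listed for each gene alone had 5838 with atovaquone and 7509 with vehicle, so the direction of these 2 genes in K562 is uncertain.

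Between the lines, 39 members were measured on all 4 arrays. Dose, time and line all differ between the 2 drug comparisons and cannot be told apart. In both, 19 members (48.7%) lay below 0, against 27.3% of 9222 genes. Taken alone, 59.5% of measured members lay below 0 in U266 and 75% in K562. Above 0 in both were 5 members, and 2414 of the 9222 genes. Another 11 were above 0 in U266 and below 0 in K562, and 4 the reverse, against 2198 and 2091 genes. Across these 39 genes Pearson's r was 0.18 and Spearman's rho 0.21, and over all 9222 genes they were 0.09 and 0.10. Genes are not independent replicates, and these are descriptions. The K562 ratio was the lower one in 30 of 39 members (76.9%), against 51.1% of genes. By class it was the lower one in 10 of 11 H2A, 8 of 11 H2B, 3 of 3 H1, 5 of 5 H3 and 4 of 9 H4 genes. H3C12 was at -0.82 in K562 and 0.18 in U266, and H2AC15 at -0.54 in K562 and 0.41 in U266. H1-3, H2AC4 and H2AC12 lay below 0 in both, at -0.95, -1.17 and -0.73 in K562 and -0.24, -0.24 and -0.38 in U266.

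**Figure D5:**
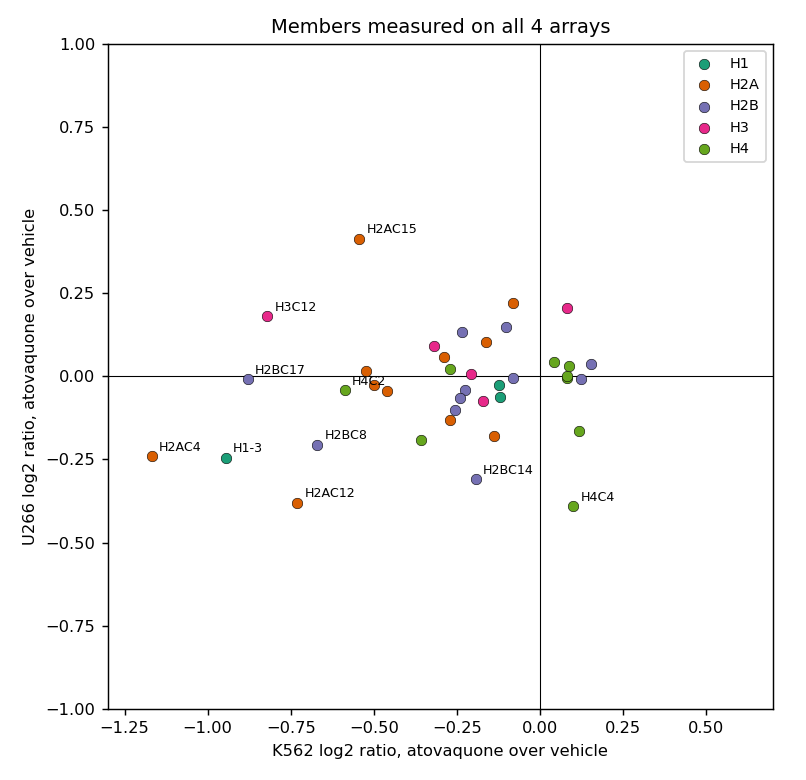
Log2 ratio of atovaquone over vehicle in K562 (x axis) and in U266 (y axis) for the 39 clustered histone genes measured on all 4 arrays, coloured by class. The 19 points below 0 on both axes include H2AC4, H1-3, H2BC17 and H2AC12, while H3C12 and H2AC15 lie to the left of 0 and above it.

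Other genes of histone supply are set beside the members, from lists chosen with earlier results of these data known. In K562, the genes listed as replication-independent histones had a median of -0.03 over 11 measured, with 0 past 1.5-fold either way. That list was set by gene name, and whether each gene is independent of replication in these cells was not tested. H2AX, the DNA damage variant, was the lowest at -0.32, and H2AZ1 was at 0.12. Genes for histone gene transcription and for 3′ processing or decay of histone mRNA had a median of -0.0048 over 23, again with 0 past 1.5-fold. SLBP was at -0.0048 and NPAT at -0.21, while UPF1 was lowest at -0.23 and NCBP2 highest at 0.19. Histone chaperones had a median of -0.03 over 24 with 0 past 1.5-fold, and SPTY2D1 at -0.41 and HIRA at -0.37 were lowest. S phase and DNA replication genes had a median of -0.02 over 39, 21 of them below 0, with 0 past 1.5-fold. The DNA clamp PCNA was at -0.03 and the S phase cyclin CCNE2 at -0.16, while GINS1 was lowest at -0.53 and CDT1 highest at 0.36.

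In U266 the same lists had medians of 0.05 over 12, 0.01 over 22, 0.02 over 24 and -0.02 over 39 genes, in the same order. One gene passed 1.5-fold. ZNF473, which acts with the U7 particle in histone mRNA 3′ cleavage, had 889 with atovaquone and 585 with vehicle. SLBP was at 0.01, NPAT at -0.0081, PCNA at -0.06 and CCNE2 at -0.18. Between the vehicle arrays the 4 medians were 0.07 over 11, 0.0099 over 22, -0.09 over 24 and -0.17 over 39 genes. No gene of the replication-independent list measured in both lines passed 2-fold. H2BW1 of that list was at least 2.74-fold higher in U266 (822 against 191 in K562, below the floor). NPAT was lower in U266 at -1.02 and the chaperone HIRA at -1.71. In the S phase list 3 genes were at least 2-fold lower in U266 (CDC45, RFC3 and MCM7) and 2 at least 2-fold higher (CCNE2 and E2F2).

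The lines matched their labels by markers. Of 8 plasma cell markers, all 8 were higher in U266 vehicle cells by at least 2-fold, 3 of them as bounds, with IL6R at 5120.3 in U266 and 448 in K562. Of 6 erythroid markers, 5 were lower in U266 by at least 2-fold, 2 of them as bounds, with HBZ at 369.9 in U266 and 6725 in K562. EPOR was within 2-fold. Markers of T cells, B cells, monocytes, fibroblasts and epithelium lay between 52.2 (MS4A1) and 549 (COL1A1) on the 4 arrays, and MS4A1 and COL1A2 were under every floor. Their part in the histone ratios was not tested.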

How the data were processed

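Total RNA from 4 cultures was labelled as biotinylated cRNA with the usual Affymetrix procedure, per the labels' protocols. The deposited table gives the authors' processed intensity of each probe set on a linear scale. For its software and normalisation, the sources used here give nothing, and no replicate or depth is available, so the number of arrays limits the precision. Of 33252 probe sets, 19460 are listed with 1 symbol and 1754 with several. The members and all other gene lists were chosen with earlier results of these data known.

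Log2 intensities were floored at each array's 40th percentile of listed probe sets, and ratios were centred on the median of measured probe sets. The brightest probe set stood for each gene. Calls used 1.5-fold for atovaquone and 2-fold between lines. Named genes were members past those folds, class extremes, every H1 gene, members measured on all 4 arrays, and up to 4 genes of each other list plus 6 preset ones. The processing was tested on simulated data. In total 8 alternatives were run. Python 3.11.15, pandas 2.3.3, numpy 2.4.6 and matplotlib 3.10.9 were used. Promoters came from RefSeq on GRCh38.p14.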

Additional observations from a re-analysis of the deposited data

Results flagged for a closer look

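H3C12, a gene for the replication-dependent H3, read lower with atovaquone in K562 cells and higher in U266 cells. Its log2 ratio was -0.82 in K562 and 0.18 in U266, and the K562 value minus the U266 value was -1.002. It drew attention because the signs were opposite with 1 pair of arrays per line. The difference was not tested, and dose, time and line differ between the comparisons.

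The probe sets listed jointly for H4C14 and H4C15 were not used for any member, and they carried a K562 log2 ratio of 0.76. The probe sets listed for each gene alone read -0.36 in the same comparison.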

How the results depend on the processing

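With 1 array per group there is no replicate error. A value counted as moved when it shifted by more than the SD of 1 probe set, or when a count changed by more than 1.5 times. That SD compares probe sets on the same arrays, so it holds no variation between cultures, and for a median over several genes it is a lenient limit. Of the 8 alternatives, the mean of probe sets could not change any member, since none has more than 1. Under the other 7, 158 medians and counts stayed within that limit and 10 moved. The 16 member values past the folds, 8 in K562 and 8 between lines, kept their sign; other named genes were not recomputed. A floor at percentile 60 moved 5 of these, which then have a bound: H2AC4 -0.93 and H3C1 -0.63 in K562, and H2AC8 -2.68, H2BC8 -2.11 and H2BC14 2.80 between lines. The medians close to 0 did change sign under some settings: H2B between the lines ran from -0.07 to 0.13, H4 between the lines from -0.09 to 0.11 and H4 in U266 from -0.04 to 0.0026. Without a floor, 1 member was at least 1.5-fold higher in U266 with atovaquone, in place of 0, and between the vehicle arrays 10 were at least 2-fold lower and 6 higher in U266, in place of 5 and 3. A floor at percentile 60 made these last counts 2 lower and 1 higher. Without centring, 1 was higher. Adding the probe sets of several genes gave 1 member higher in K562, that of H4C14 and H4C15, in place of 0, and put the H3 median at -0.034 in place of 0.09 in U266 and at -0.35 in place of -0.21 in K562. A floor at percentile 20 gave a K562 median of H1 of -0.12 in place of -0.28. The number lower in K562 ranged from 6 to 10 around 8, and H4C2 left the count under a floor at percentile 20 (-0.582), without a floor (-0.580) and with quantile normalisation (-0.569). The K562 medians of H2A (-0.49 to -0.40) and H4 (0.06 to 0.09) kept their signs under all 7. No paired analysis was possible because each group is 1 array.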
